A study of Mus musculus with 12 samples.

Results

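The genes of cholesterol synthesis, uptake and efflux were followed across mouse fat grafts. They are 30 of the 19547 genes in the deposited table, taken by their symbols from lists chosen with earlier results of these data known. The lists hold 18 synthesis enzymes, 5 regulators of SREBP2, 5 genes of the liver X receptors (LXR) and efflux, and 2 genes of uptake and storage. All 30 were found and all 30 passed the filter on low counts. The grafts were adipose tissue at 8 weeks of grafting from wild type C57BL/6 mice aged 16 weeks, with 4 libraries in each of 3 groups. The control group held fat grafts alone. In the CAL group (cell-assisted lipotransfer) the graft had added ASC, an abbreviation commonly read as adipose-derived stem or stromal cells, and in the CAL_Dll4i group it had added ASC and inhibition of Dll4, an endothelial Notch ligand. How Dll4 was inhibited and where the ASC came from are not stated in the sources used here, nor do the labels tie each library to a separate animal; the spread behind every p-value is therefore that of these samples, which may be technical.

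Cells make cholesterol from acetyl-CoA through the mevalonate pathway, then squalene and lanosterol. When sterol is scarce, SCAP carries SREBP2 from the endoplasmic reticulum to the Golgi, where it is cut to release a factor that switches on the synthesis enzymes and the LDL receptor, while INSIG proteins hold SCAP back when sterol is plentiful. Oxysterols, which form when sterol accumulates, activate LXRα (Nr1h3) and LXRβ (Nr1h2), which switch on the exporters Abca1 and Abcg1 and Mylip, a ligase that marks the LDL receptor for degradation. Adipocytes hold a large store of free cholesterol in their lipid droplets, and macrophages that take up lipid from dying adipocytes export it through the same transporters.

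Total counts ran from 55883051 to 70804141 per library. Libraries correlated across genes at 0.975 to 0.989 within groups and 0.970 to 0.989 between groups. Dll4, the targeted gene, stood at 5.53, 5.68, 6.95 and 4.97 CPM (counts scaled to a common library size by TMM) in control, at 4.03, 4.22, 3.60 and 3.01 in CAL and at 4.95, 3.98, 4.35 and 4.39 in CAL_Dll4i, which does not test the treatment, since its means are not given. The 13 adipocyte markers summed to 933 to 2100 CPM in control, 2160 to 3200 in CAL and 1600 to 2120 in CAL_Dll4i, so the markers of the labelled tissue were present in every library and the CAL libraries all lay above both other groups. The 11 macrophage markers summed to 4390 to 4820, 4320 to 5030 and 4370 to 5090 CPM in the same order, and 7 markers of lipid-associated macrophages to 4090 to 5310, 4100 to 5000 and 4790 to 5890. Skeletal muscle markers (5 of 9 listed were in the table) summed to 109 CPM in CAL replicate 1, 225 in CAL replicate 2 and 396 in CAL_Dll4i replicate 3, against 2.49 to 11.6 elsewhere. No marker in the table was at 0, because its lowest count is 1. These are bulk tissue libraries, in which fewer cells of a type and less RNA per cell cannot be told apart.

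Promoter sequence was matched in RefSeq (assembly GRCm38.p6, 250 bases before to 50 after the start) for 24 of the 30 genes, and a single promoter each held the sterol regulatory element searched (TCACNCCAC) and the direct repeat that LXR binds (GGTNA and GGTCA with NNNNN between them). They are shown because Hmgcs1 and Abca1 stand for the opposite arms of the pathway. Both strands were searched, and capitals mark the match. The element of Hmgcs1 reads along the gene, and that of Abca1 reads on the other strand.
Hmgcs1, chr13:119690101-119690400, + strand: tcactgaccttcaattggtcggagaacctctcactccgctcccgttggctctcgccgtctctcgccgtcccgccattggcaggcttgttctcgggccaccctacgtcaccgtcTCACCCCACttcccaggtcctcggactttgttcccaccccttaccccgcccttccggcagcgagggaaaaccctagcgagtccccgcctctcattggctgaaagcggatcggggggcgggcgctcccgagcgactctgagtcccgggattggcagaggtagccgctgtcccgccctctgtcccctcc
Abca1, chr4:53159846-53160145, - strand: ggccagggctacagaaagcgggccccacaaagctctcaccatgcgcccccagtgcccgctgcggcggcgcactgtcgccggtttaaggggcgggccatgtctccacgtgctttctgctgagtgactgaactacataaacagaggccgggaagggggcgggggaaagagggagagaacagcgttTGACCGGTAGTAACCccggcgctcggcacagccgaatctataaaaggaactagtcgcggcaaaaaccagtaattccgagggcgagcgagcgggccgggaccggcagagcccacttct
The sterol element occurred in the promoters of 1.44% of 27025 genes, and the LXR repeat in 0.226%. A CCAAT box (CCAAT) is the site of the NF-Y factor that works beside SREBP2. Among genes with promoter sequence, 14 of 15 synthesis enzymes and 1 of 4 LXR genes had it at 1 start site or more. This compares with 41.1% of all genes. No CCAAT box overlapped the longer motif in either promoter shown. A match is a description of these letters and not a bound site.

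The export and storage genes were the most abundant of the 30 when counted per length. In the deposited TPM, averaged over 12 libraries, Soat1 stood at 233 and Abca1 at 181, followed by Scarb1 at 93.8 and Abcg1 at 76.7. Soat1 lay above 96.6% of all genes. The most abundant enzyme was Fdps, which makes farnesyl pyrophosphate, at 72.8 TPM, then Msmo1 at 56.7 and Sc5d at 52.7. Fdps shares 77.4% of its exon bases with Gm43738 on the same strand, so its rank is uncertain. The lowest levels were those of Lss and Stard4 at 10.1 TPM each, Hmgcs1 at 8.16, Mvk at 8.13, Hsd17b7 at 7.88 and Tm7sf2 at 6.45. Nr1h2 at 53.9 TPM and Nr1h3 at 50.5 were close over all libraries.

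**Figure D1:**
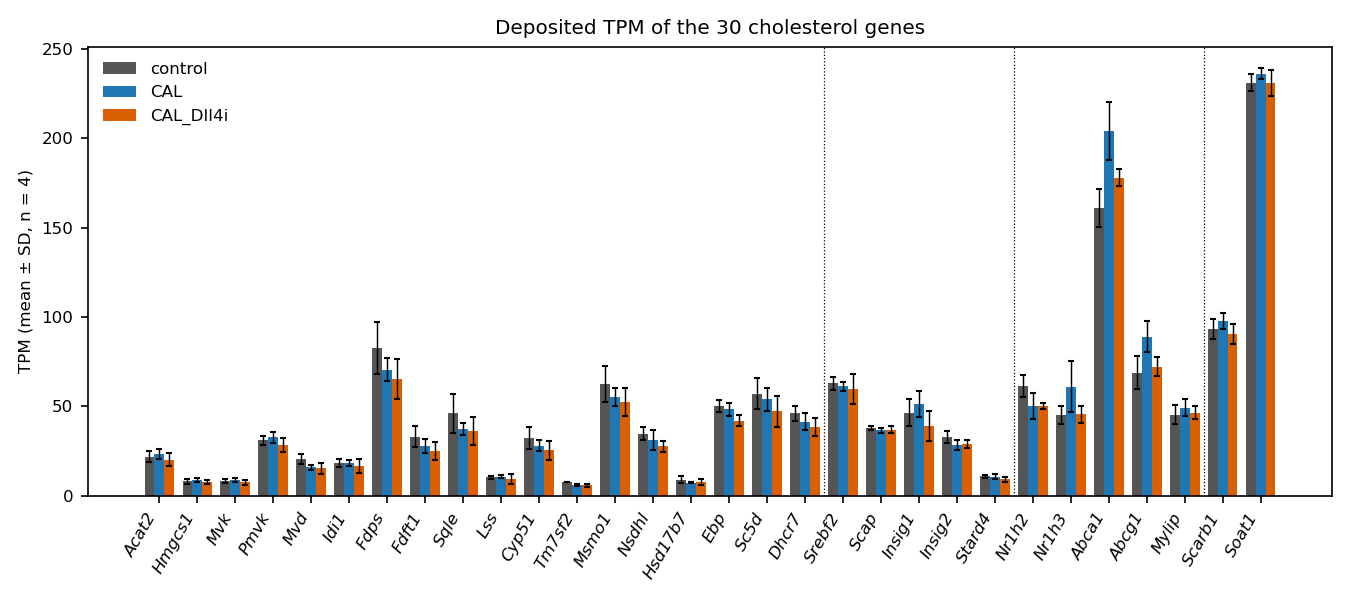
Bars give the deposited TPM of each of the 30 genes (mean, with SD as error bars, n = 4) in control, CAL and CAL_Dll4i, and dotted lines part synthesis enzymes, SREBP2 regulators, LXR efflux genes, and uptake and storage genes. Soat1 and Abca1 stand above the rest, and Abca1 and Abcg1 have their highest bar in CAL.

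Steadiness also differed among the genes. The spread within groups (SD on the log2 CPM scale) was 0.04 for Soat1, 0.05 for Scarb1, 0.06 for Scap and 0.10 for Abca1, below the median of 0.18 over all genes. It was 0.27 for Sqle, 0.25 for Hsd17b7 and 0.24 for both Cyp51 and Insig1, above that median.

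In CAL against control, which asks what added ASC go with in the graft, the exporters and LXRα stood higher. Of 18 synthesis enzymes 11 had estimates below 0, down to -0.35 on the log2 scale. No gene of the 30 passed the test across all genes. The quasi-likelihood test of edgeR, adjusted by Benjamini-Hochberg over all genes, called 0 of the 30 at an adjusted p under 0.05, while calling 0.00539% of 18551 genes. At an unadjusted p under 0.05, 3 of the 30 were higher (Abca1, Abcg1 and Nr1h3), against 7.01% of all genes, and 3 were lower (Mvd, Tm7sf2 and Nr1h2), against 7.57%. DESeq2 called 3 of the 30, all higher, against 3.61% of the 17086 genes it gave an adjusted p. Those 3 were again Abca1, Abcg1 and Nr1h3. Of the 30 genes, 15 estimates were above 0 and 15 below, where 48.4% of all genes were above 0. The median was -0.00 on the log2 scale, against -0.01 for all genes.

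Abca1 (chromosome 4, 53030789 to 53159988 on GRCm38), which hands cholesterol to lipid-poor apolipoprotein A-I, had 701, 679, 611 and 715 CPM in control. It had 920, 855, 924 and 792 CPM in CAL and 828, 732, 800 and 809 CPM in CAL_Dll4i. Every CAL and every CAL_Dll4i library lay above every control, and CAL and CAL_Dll4i overlapped. In CAL against control it was 1.29-fold higher, a log2 fold change of 0.37 ± 0.07 (SE), with an adjusted p of 0.0998 by edgeR. DESeq2 gave an adjusted p of 1.54e-04, and edgeR's alternatives gave 0.0839 to 0.320. CAL_Dll4i stood at -0.14 ± 0.07 against CAL (adjusted p = 0.681) and at 0.23 ± 0.07 against control (adjusted p = 0.700).

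Abcg1 (chromosome 17, 31057694 to 31117984), which passes cholesterol on to HDL particles, had 191, 166, 138 and 162 CPM in control. It had 218, 196, 215 and 234 CPM in CAL and 203, 163, 174 and 190 CPM in CAL_Dll4i. In CPM the lowest CAL library lay above the highest control, while CAL_Dll4i overlapped with both other groups. In the deposited TPM, control ran from 57.9 to 80.8 and CAL from 78.6 to 97.8, so these groups overlapped. The log2 fold change of CAL against control was 0.39 ± 0.10, or 1.31-fold, with adjusted p = 0.166 by edgeR. DESeq2's adjusted p was 0.0140, and the alternatives of edgeR ran from 0.0935 to 0.376. CAL_Dll4i stood at -0.24 ± 0.10 on the log2 scale against CAL (adjusted p = 0.659), and at 0.15 ± 0.10 against control.

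Nr1h3 (chromosome 2, 91184061 to 91202829) encodes LXRα, the form typical of adipose tissue, liver and macrophages. Its CPM were 34.0, 35.8, 33.8 and 28.8 in control, 36.7, 42.7, 41.8 and 60.9 in CAL, and 32.9, 37.8, 32.7 and 36.5 in CAL_Dll4i. CAL did not overlap with control, and CAL replicate 4 stood well above the other CAL libraries. CAL against control gave 0.46 ± 0.14 on the log2 scale, or 1.38-fold, with adjusted p = 0.195 by edgeR and 0.0412 by DESeq2, and 0.149 to 0.350 in edgeR's alternatives. Without CAL replicate 4 the estimate was 0.29, its lowest value over the alternatives, so that library alone moves it by over 1.5 times. Against CAL, CAL_Dll4i stood at -0.38 ± 0.14 (adjusted p = 0.659), and against control at 0.08 ± 0.14. Without CAL replicate 4 the estimate against CAL was -0.21.

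Nr1h2, which encodes the broadly expressed LXRβ, ran the other way. It had 48.0, 52.3, 58.0 and 47.2 CPM in control, 37.0, 38.6, 52.5 and 45.7 in CAL, and 45.7, 44.4, 42.8 and 45.0 in CAL_Dll4i. All CAL_Dll4i libraries lay below all controls, while CAL and control overlapped. Its log2 fold change against control was -0.24 ± 0.10 for CAL (adjusted p = 0.321) and -0.21 ± 0.10 for CAL_Dll4i (adjusted p = 0.716). The annotation also holds a pseudogene, Nr1h2-ps, so a share of its counts is uncertain. In TPM, Nr1h3 amounted to 0.738 ± 0.0834 (SD, n = 4) of Nr1h2 in control, 1.22 ± 0.254 in CAL and 0.910 ± 0.0730 in CAL_Dll4i, and this ratio was not tested. The CAL libraries ran from 0.929 to 1.54 and the control libraries from 0.646 to 0.823.

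Mylip, the ligase that targets the LDL receptor, had 56.9, 56.4, 46.0 and 62.0 CPM in control, 67.4, 60.6, 60.9 and 56.0 in CAL, and 64.6, 62.0, 56.3 and 57.8 in CAL_Dll4i. The groups overlapped, and CAL against control gave a log2 fold change of 0.15 ± 0.09 (adjusted p = 0.472), or 0.07 without control replicate 3. CAL_Dll4i stood at -0.03 ± 0.09 against CAL.

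**Figure D2:**
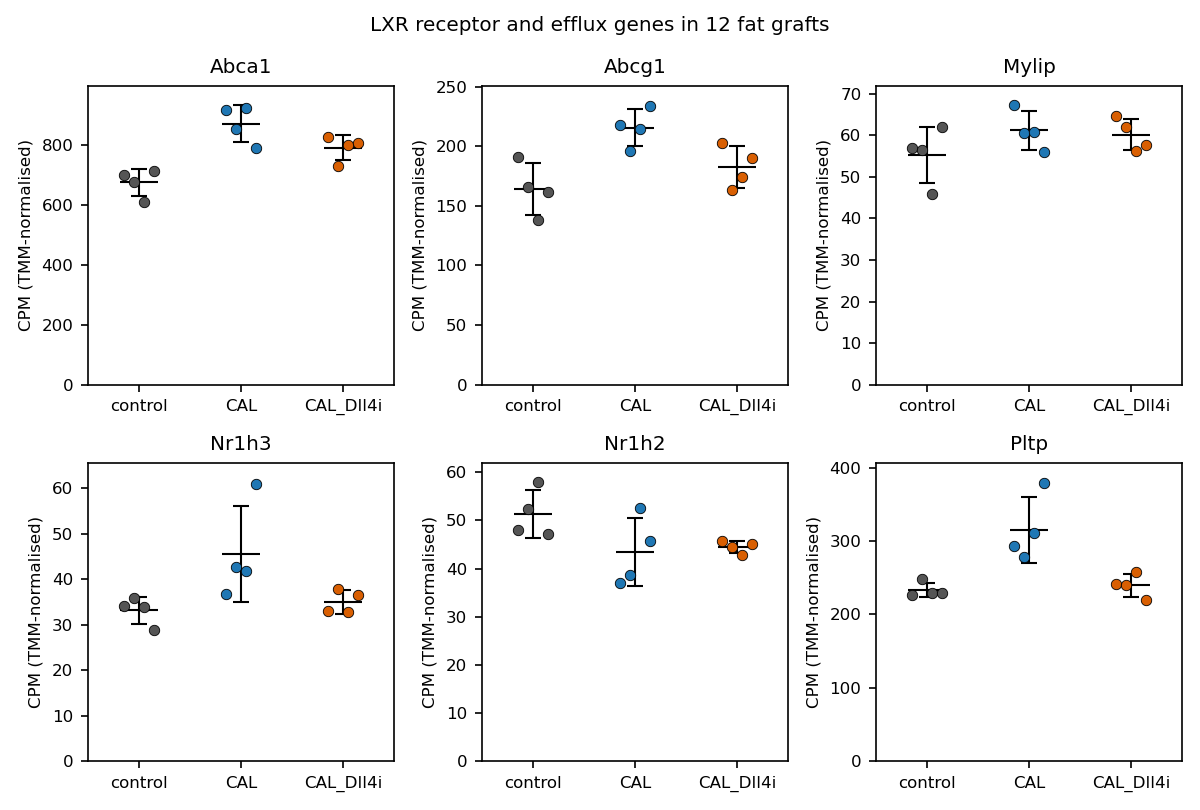
TMM-normalised CPM by library (points) with mean and SD (bars, n = 4 per group) for Abca1, Abcg1, Mylip, Nr1h3, Nr1h2 and Pltp, on axes that start at 0. The CAL points of Abca1, Abcg1, Nr1h3 and Pltp all lie above the control points, and those of Nr1h2 and Mylip overlap with them.

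Among the 5 LXR efflux genes, 4 estimates were higher and 1 lower in CAL than in control, at a median of 0.37 on the log2 scale. Of the 30 genes, 4 had no overlap in CPM between CAL and control, against 7.35% of all genes. Abca1, Abcg1 (in CPM but not in TPM) and Nr1h3 were above control, which held for 3.61% of all genes, and Tm7sf2 was below it. Adipocyte markers moved with this difference: each of the 13 had an estimate above 0 in CAL, 11 of them at an unadjusted p under 0.05, and their median was 0.94. Adipocyte sums were 2690, 2160, 2220 and 3200 CPM in the 4 CAL libraries, and CAL replicate 4, with the highest sum, had the highest Nr1h3 and Abcg1 of the group but its lowest Abca1. Of 11 macrophage markers 7 were higher and 4 lower, with a median of 0.04. Adgre1, 1 of the higher ones, reached that level and did not overlap, at 0.22 ± 0.07 on the log2 scale. Of 7 markers of lipid-associated macrophages 2 were higher and 5 lower, none at that level. Of 5 endothelial markers 4 were lower, 2 of them at that level and 1 without overlap. All 5 skeletal muscle markers were higher at that level, and their groups overlapped. Over all genes 7.01% were higher at that level and 7.57% lower. The part of cell makeup in the LXR gene difference was not tested.

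Estimates of the synthesis enzymes were more often below 0 than above it. The amounts were near their errors for many and larger for others, such as Mvd and Tm7sf2. In CAL against control 7 of 18 estimates were above 0 and 11 below, with a median of -0.13 and a range of -0.35 to 0.18 on the log2 scale. Mvd and Tm7sf2 were lower at an unadjusted p under 0.05, and none passed the adjusted test. Leaving out 1 library moved that median to between -0.19 (without CAL replicate 4) and -0.04 (without CAL replicate 1), with -0.05 without control replicate 3. It was -0.01 when the 3 libraries with muscle RNA were left out. In CAL_Dll4i against control 1 was above 0 and 17 below, with a median of -0.17, and in CAL_Dll4i against CAL 2 were above and 16 below, with a median of -0.09. The first of these medians ran from -0.23 to -0.10 with 1 library left out (-0.10 without control replicate 3 and -0.11 without CAL_Dll4i replicate 4). The second ran from -0.16 (without CAL_Dll4i replicate 3) to -0.01 (without CAL_Dll4i replicate 4), with -0.02 without CAL replicate 4, -0.04 without CAL_Dll4i replicate 1 and -0.14 without CAL replicate 1, and was -0.25 without the 3 libraries with muscle RNA. The comparisons share their control or CAL libraries, and 14 of the 18 enzymes were lowest in the same library (CAL_Dll4i replicate 4). These counts are therefore not independent, between comparisons or between enzymes. Over all genes the medians were -0.01, -0.00 and 0.00 in the order of the comparisons above.

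Hmgcs1, which condenses acetoacetyl-CoA to HMG-CoA at the entry of the pathway, had 11.8, 12.8, 12.7 and 8.89 CPM in control, 11.4, 12.8, 12.6 and 15.2 in CAL, and 10.2, 11.5, 14.2 and 11.8 in CAL_Dll4i. All groups overlapped. Its log2 fold change in CAL against control was 0.18 ± 0.14 (adjusted p = 0.584), the highest estimate of the 18 enzymes, and it was 0.07 without control replicate 4 and 0.09 without CAL replicate 4. An antisense transcript shares 16.0% of its exon bases, and the sources used here do not say whether counting used strand.

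Mvd, which decarboxylates mevalonate diphosphate, had 13.8, 16.6, 16.5 and 12.4 CPM in control, 10.1, 11.9, 13.3 and 11.2 in CAL, and 10.3, 13.8, 12.9 and 9.55 in CAL_Dll4i. Both ASC groups overlapped with control. CAL and CAL_Dll4i each stood at -0.35 ± 0.14 against control on the log2 scale, with adjusted p = 0.297 and 0.714.

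Sqle, which oxidises squalene and is a slow step of the pathway, had 38.5, 53.0, 68.4 and 47.6 CPM in control, the widest range within that group among the enzymes named here. It had 37.4, 43.8, 42.4 and 47.8 CPM in CAL and 40.6, 44.6, 53.7 and 32.9 in CAL_Dll4i. The groups overlapped, with log2 fold changes against control of -0.28 ± 0.18 for CAL (adjusted p = 0.490) and -0.27 ± 0.18 for CAL_Dll4i. Without control replicate 3 these were -0.12 and -0.11, and without CAL_Dll4i replicate 4 the second was -0.16.

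Cyp51, the lanosterol demethylase, had 51.1, 59.9, 71.5 and 47.3 CPM in control, 43.4, 50.4, 50.8 and 58.2 in CAL, and 42.1, 54.6, 56.5 and 38.2 in CAL_Dll4i. It overlapped in all 3 comparisons, with -0.18 ± 0.15 in CAL against control and -0.26 ± 0.15 in CAL_Dll4i against control on the log2 scale. Control replicate 3 was its highest library and CAL_Dll4i replicate 4 its lowest, as for Sqle. Without control replicate 3 the estimates were -0.06 and -0.14. Without CAL replicate 1 the first was -0.11, and without CAL_Dll4i replicate 4 the second was -0.17.

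Tm7sf2, a sterol reductase that acts just after Cyp51, was the least abundant member and the 1 enzyme whose groups did not overlap. Its CPM were 4.65, 4.67, 4.56 and 4.63 in control, 3.41, 3.41, 4.19 and 3.97 in CAL, and 3.58, 3.45, 4.39 and 3.21 in CAL_Dll4i. Every control lay above every library of both ASC groups. All CAL libraries were below all controls for 3.75% of genes, and all CAL_Dll4i libraries for 2.35%. Against control its log2 fold change was -0.30 ± 0.12 for CAL (adjusted p = 0.284) and -0.34 ± 0.12 for CAL_Dll4i (adjusted p = 0.714). Without the 3 libraries with muscle RNA the estimate of CAL against control was -0.18, over 1.5 times smaller.

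Ebp, the sterol isomerase, had 36.5, 34.8, 38.2 and 33.6 CPM in control, 31.5, 34.6, 36.0 and 38.4 in CAL, and 35.0, 31.6, 30.0 and 30.5 in CAL_Dll4i. CAL_Dll4i held the 2 lowest values and overlapped with both other groups. Its log2 fold change was -0.17 ± 0.08 against control (adjusted p = 0.714) and -0.14 ± 0.08 against CAL (adjusted p = 0.688).

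The other 12 enzymes overlapped between groups in all 3 comparisons. In CAL against control their log2 fold changes ran from -0.31 ± 0.16 for Hsd17b7, a ketosteroid reductase, to 0.14 ± 0.15 for Mvk, the mevalonate kinase. Early enzymes (Acat2, Mvk and Pmvk) had estimates of 0.13, 0.14 and 0.10, and Idi1 one of 0.00. Fdps and Fdft1, which make farnesyl pyrophosphate and squalene, had estimates of -0.20 each. The later steps Lss, Msmo1, Nsdhl, Sc5d and Dhcr7 had estimates of 0.03, -0.15, -0.12, 0.10 and -0.14. The lowest estimate of CAL_Dll4i against CAL was -0.21 ± 0.12 for Sc5d, and against control -0.29 ± 0.15 for Fdft1. Fdps shares 77.4% of its exon bases with Gm43738 on the same strand and Fdft1 20.9% with Ctsb on the other, and Acat2 lies beside its paralogue Acat3, so their counts are uncertain.

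**Figure D3:**
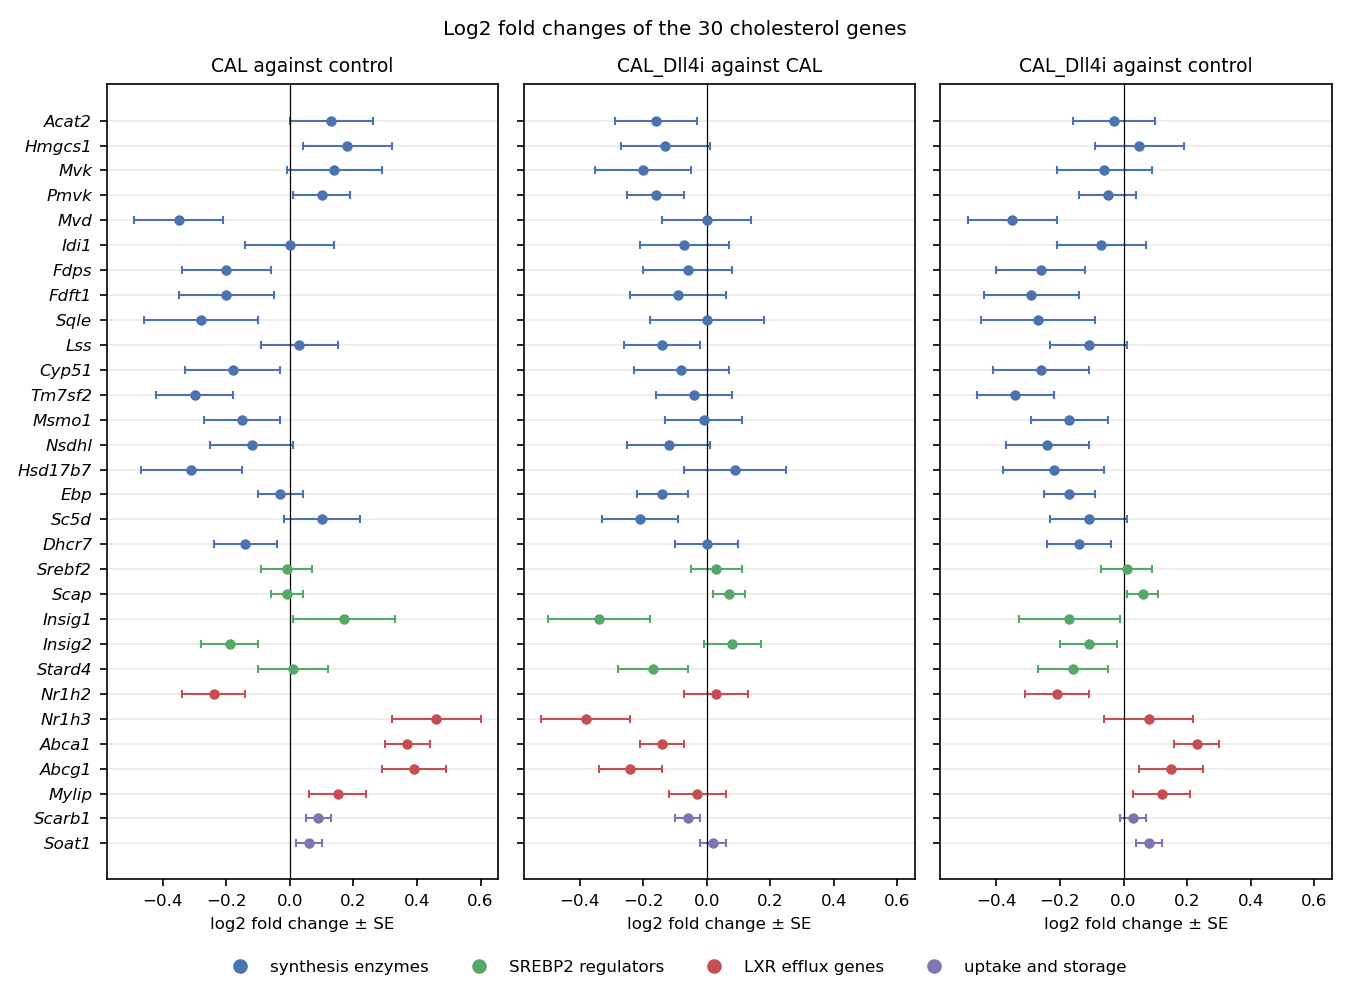
Log2 fold change ± SE of each of the 30 genes by edgeR, coloured by list, with a panel for CAL and one for CAL_Dll4i against control and, between them, CAL_Dll4i against CAL. Nr1h3, Abca1 and Abcg1 lie farthest to the right in the first panel, and 16 of 18 enzymes in the second and 17 of 18 in the third have estimates below 0.

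The enzymes differed between libraries of the same group. CAL_Dll4i replicate 4 was the lowest of 12 libraries for 14 of the 18 enzymes, and control replicate 3 was the highest for 7 and CAL replicate 4 for 6. Relative to the control mean, the median enzyme stood at 0.740-fold in CAL_Dll4i replicate 4 and 0.791-fold in CAL replicate 1, and at 1.15-fold in control replicate 3. In control itself 15 and 16 of 18 enzymes were below the group mean in replicates 1 and 4, and 3 and 2 in replicates 2 and 3. In CAL 15, 14, 9 and 6 were below that mean in replicates 1 to 4, and in CAL_Dll4i 17, 14, 9 and 17. CAL and CAL_Dll4i thus each held libraries near the control mean as well as libraries below it. What sets these libraries apart was not tested.

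**Figure D4:**
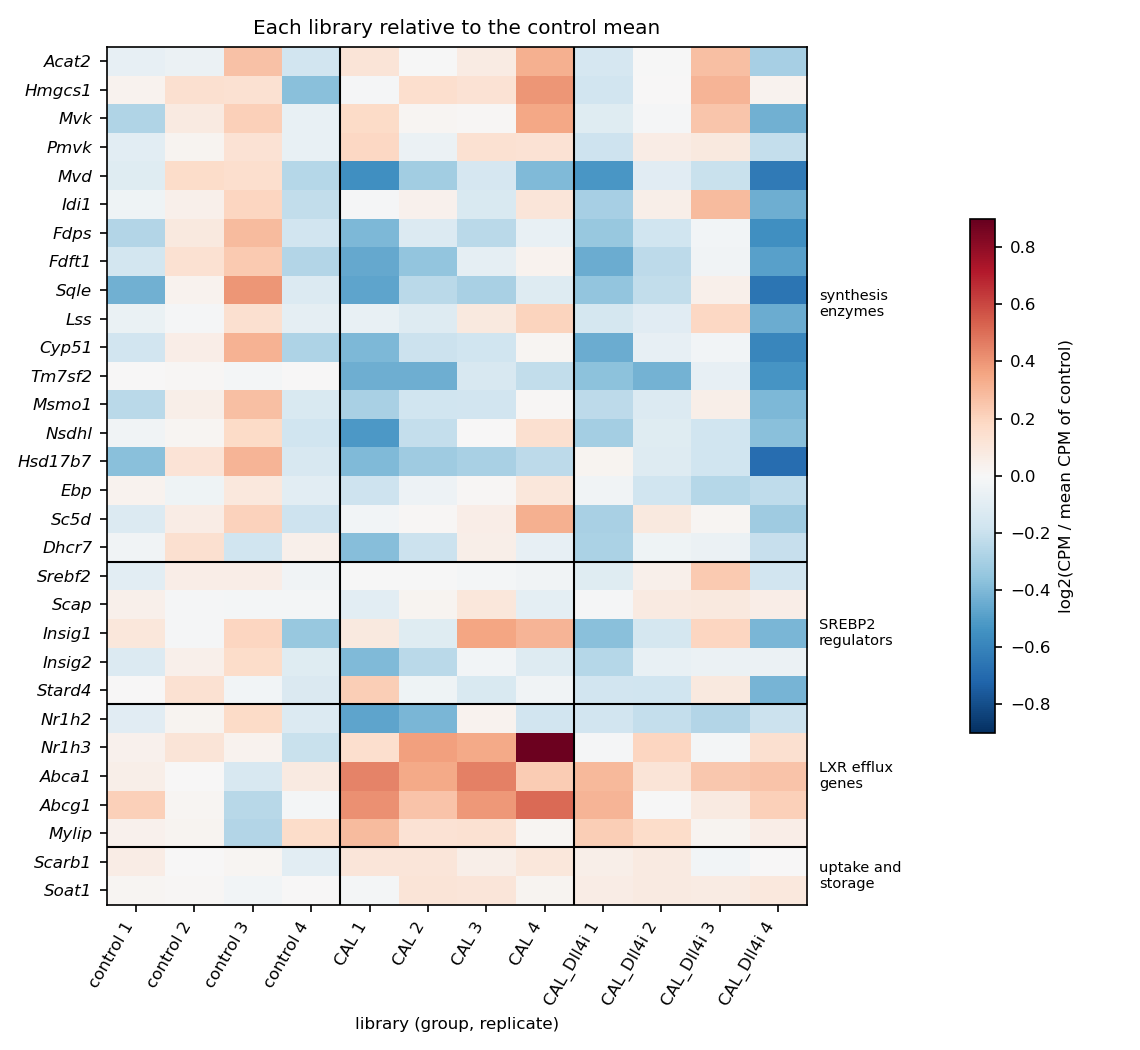
Each cell gives the log2 ratio of a gene's CPM in 1 library to its mean over the 4 controls, with genes in rows by list and libraries in columns by group. CAL_Dll4i replicate 4 is blue for 17 of 18 enzymes, while the Abca1 row is red in all 8 libraries of CAL and CAL_Dll4i.

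No regulator of SREBP2 passed the test in any comparison. Of the 5, 2 estimates were above 0 and 3 below in CAL against control, none at an unadjusted p under 0.05, with a median of -0.01. In CAL_Dll4i against CAL 3 were above 0 and 2 below, and in CAL_Dll4i against control 2 and 3, none of them at that level.

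Srebf2, the gene of SREBP2 itself, had 115, 127, 127 and 119 CPM in control, 122, 122, 121 and 119 in CAL, and 113, 126, 144 and 108 in CAL_Dll4i. Its groups overlapped, and CAL_Dll4i held both its highest and its lowest library. The log2 fold change in CAL against control was -0.01 ± 0.08, with a 95% interval of -0.18 to 0.15.

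Insig1, an anchor of SCAP and itself a target of SREBP2, had 54.2, 50.0, 57.7 and 39.8 CPM in control, 53.6, 46.7, 64.4 and 62.2 in CAL, and 38.9, 45.1, 57.7 and 37.8 in CAL_Dll4i. The groups overlapped. CAL_Dll4i stood at -0.34 ± 0.16 against CAL on the log2 scale (adjusted p = 0.671), and CAL at 0.17 ± 0.16 against control (adjusted p = 0.640), the latter 0.07 without control replicate 4 and 0.10 without CAL replicate 3. Without CAL_Dll4i replicate 3 and the 2 CAL libraries with muscle RNA, the estimate against CAL was -0.64, which is over 1.5 times larger.

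Stard4, a carrier that moves cholesterol between membranes, had 23.3, 25.6, 22.9 and 21.2 CPM in control, 27.0, 22.6, 21.1 and 22.7 in CAL, and 20.6, 20.6, 24.6 and 17.4 in CAL_Dll4i. The groups overlapped, with 0.01 ± 0.11 in CAL against control on the log2 scale. Scap, the escort of SREBP2, lay between 61.2 and 70.3 CPM in all 12 libraries. Insig2 ran from 32.9 to 40.2 CPM in control and from 27.2 to 35.2 in CAL, with a log2 fold change of -0.19 ± 0.09.

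Uptake and storage genes were the steadiest. Scarb1, the receptor SR-BI that exchanges cholesterol with HDL, had 99.5, 95.3, 96.1 and 88.7 CPM in control, 102, 102, 98.5 and 102 in CAL, and 98.4, 101, 93.3 and 95.3 in CAL_Dll4i. The groups overlapped, with a log2 fold change of 0.09 ± 0.04 in CAL against control (adjusted p = 0.352).

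Soat1, which esterifies cholesterol for storage in droplets, had 457, 453, 442 and 451 CPM in control, 445, 489, 487 and 458 in CAL, and 473, 476, 474 and 482 in CAL_Dll4i. In CPM all CAL_Dll4i libraries lay above all controls, which held for 2.41% of genes, and CAL overlapped with both. In the deposited TPM, control (227 to 237) and CAL_Dll4i (226 to 241) overlapped, with a mean of 231 in each. The difference by edgeR was small, at 0.08 ± 0.04 on the log2 scale against control (adjusted p = 0.716), and 0.06 ± 0.04 in CAL against control.

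In CAL_Dll4i against CAL, which asks what Dll4 inhibition goes with when ASC are present, edgeR called 0 of the 30 genes and 0% of all genes, and DESeq2 called 0 of the 30 against 0.00540% of all genes. At an unadjusted p under 0.05 were 2 of the 30, against 7.42% of all genes: 0 were higher against 4.47%, and 2 were lower (Nr1h3 and Abcg1) against 2.95%. No gene of the 30 had groups that did not overlap, where 3.34% of all genes had (1.58% higher and 1.76% lower). In total 7 estimates were above 0 and 23 below, where 51.3% of all genes were above 0. Adipocyte markers moved with these values: each of the 13 was estimated below 0 in CAL_Dll4i, their median was -0.66, and 7 did not overlap. The lipid-associated macrophage markers moved too: each of the 7 was estimated above 0, 3 of them at an unadjusted p under 0.05, with 1 that did not overlap and a median of 0.18. Of the 11 macrophage markers 6 were above 0 and 5 below, with a median of 0.02. Adgre1, 1 of the lower ones, reached that level at -0.20 ± 0.07 on the log2 scale, and its groups overlapped. The part of either cell type in the result was not tested.

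In CAL_Dll4i against control edgeR called 0 of the 30 genes and 0% of all genes, and DESeq2 0 of the 30 against 0.329%. At an unadjusted p under 0.05 were 4 of the 30, against 6.92% of all genes: Abca1 was higher, against 3.86%, and Tm7sf2, Mvd and Ebp were lower, against 3.06%. Of the 30 estimates 9 were above 0 and 21 below, where 49.6% of all genes were above 0. In CPM, groups did not overlap for Abca1 and Soat1, which were higher, and for Tm7sf2 and Nr1h2, which were lower, or 4 of 30 against 4.77% of all genes. Soat1 did overlap in TPM. Of the 13 adipocyte markers 12 were estimated above 0, 1 of them at an unadjusted p under 0.05, and their median was 0.33. Each of the 7 lipid-associated macrophage markers was above 0, 2 of them at that level, with a median of 0.13. Of 5 fibroblast markers 4 were above 0, 3 of them at that level and 1 without overlap, with a median of 0.18. Of the 5 skeletal muscle markers all were above 0, 4 at that level and 2 without overlap. The part of these markers in the result was not tested.

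Set side by side, the mean level of the LXR genes was higher in CAL than in control by more than its spread. That of the synthesis enzymes was lower by less than its spread. Of the 5 LXR genes, Nr1h2 went the other way at -0.24 ± 0.10 on the log2 scale, and Mylip overlapped between these groups. The mean log2 CPM of the 18 enzymes was 4.60 ± 0.16 (SD, n = 4) in control, 4.51 ± 0.12 in CAL and 4.42 ± 0.19 in CAL_Dll4i. That of the 5 LXR genes was 6.65 ± 0.07 in control, 6.87 ± 0.08 in CAL and 6.73 ± 0.05 in CAL_Dll4i. The LXR levels of CAL lay above those of every control, while the synthesis levels overlapped in all groups.

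The level of synthesis minus that of LXR genes was -2.23, -2.03, -1.77 and -2.18 in control, -2.44, -2.33, -2.38 and -2.29 in CAL, and -2.44, -2.19, -2.04 and -2.56 in CAL_Dll4i, in log2 units. All CAL libraries lay below all controls, and CAL_Dll4i spanned both groups. The group means were -2.05 ± 0.21, -2.36 ± 0.07 and -2.31 ± 0.24 (SD, n = 4). These levels are a description with no test, since the lists were chosen with earlier results of these data known. In control replicate 3, where the difference was smallest, synthesis was at its highest (4.79) and LXR genes at their lowest (6.56).

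**Figure D5:**
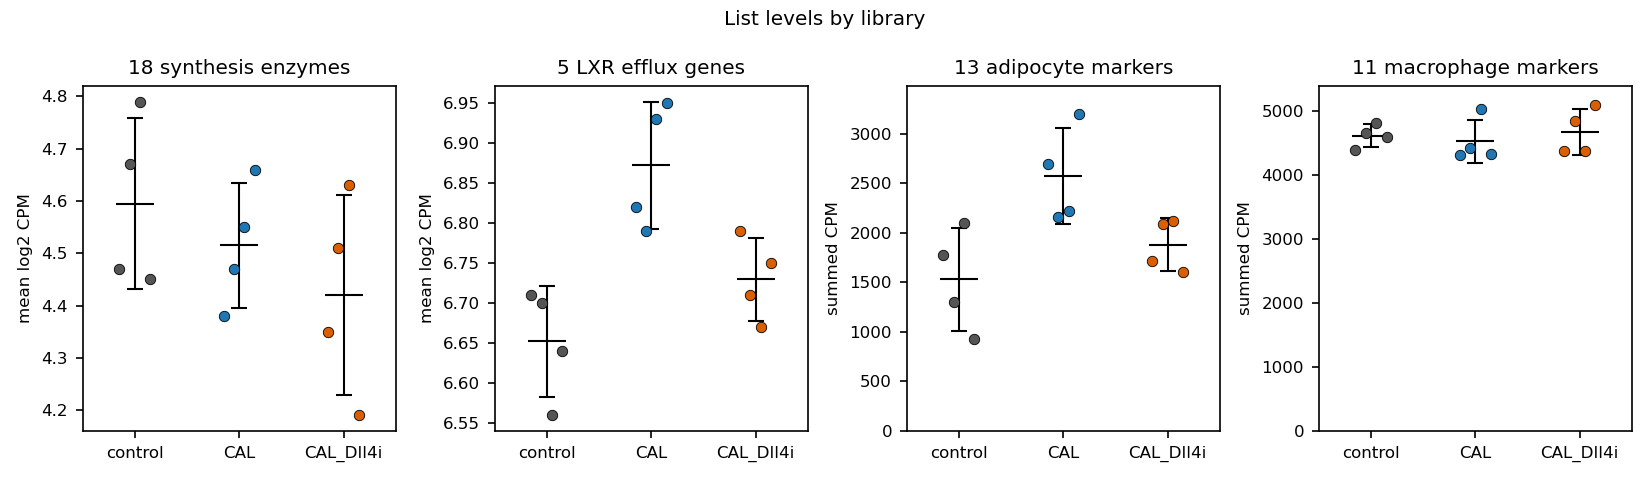
Points give, by library, the mean log2 CPM of 18 synthesis enzymes and of 5 LXR efflux genes and the summed CPM of 13 adipocyte and 11 macrophage markers, with mean and SD (bars, n = 4); the axes of the log2 panels do not start at 0. LXR levels and adipocyte sums in CAL lie above all controls, while enzyme levels and macrophage sums overlap.

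Among other genes of the pathway, 13 more of the SREBP2 system, 13 of LXR and efflux and 13 of uptake, lysosomes and storage were in the table. In CAL against control the SREBP2 genes had 4 estimates above 0 and 9 below, with a median of -0.08, and 1 was higher and 3 lower at an unadjusted p under 0.05, a level that 7.01% of all genes reached higher and 7.57% lower. The lower ones included Ggps1, the geranylgeranyl pyrophosphate synthase, at -0.23 ± 0.07 (adjusted p = 0.214) and Mbtps2, a protease that cuts SREBP2, at -0.16 ± 0.06 (adjusted p = 0.280). The LXR and efflux genes had 7 above and 6 below, with 3 higher and 2 lower at that level and a median of 0.03. The uptake, lysosome and storage genes had 8 above and 5 below, with 1 higher and 1 lower. At that level 0 SREBP2 genes were higher and 1 lower in CAL_Dll4i against CAL, 0 and 2 of the LXR and efflux genes, and 2 and 0 of the uptake, lysosome and storage genes, against 4.47% higher and 2.95% lower over all genes. In CAL_Dll4i against control 3 SREBP2 genes were lower and no gene of the other lists reached that level, against 3.86% higher and 3.06% lower over all genes. No gene of the 3 lists passed edgeR's adjusted test in any of the 3 comparisons, while DESeq2 called Pltp and Vldlr higher in CAL against control, where it called 3.61% of genes, and no other.

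Pltp, the phospholipid transfer protein and an LXR target, had 226, 248, 230 and 229 CPM in control, 294, 278, 311 and 380 in CAL, and 241, 240, 258 and 220 in CAL_Dll4i. CAL lay above both other groups without overlap. The log2 fold change was 0.44 ± 0.09 in CAL against control, with adjusted p = 0.109 by edgeR, 0.00107 by DESeq2 and 0.0858 to 0.274 in edgeR's alternatives. Against CAL, CAL_Dll4i stood at -0.40 ± 0.09, with adjusted p = 0.659 by edgeR, 0.0679 by DESeq2 and 0.368 to 0.999 in edgeR's alternatives. Lpcat3, which remodels phospholipids and is also an LXR target, stood at 0.12 ± 0.05 in the first comparison and at -0.14 ± 0.05 in the second, where the groups did not overlap. Other genes of this list lay below 0 in CAL against control: Arl4c stood at -0.39 ± 0.15 (adjusted p = 0.283) and Ch25h, the enzyme that makes 25-hydroxycholesterol, at -1.23 ± 0.50 (adjusted p = 0.299), both singled out after their values were seen.

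Vldlr, the very low density lipoprotein receptor, had 19.5, 17.3, 27.9 and 14.5 CPM in control, 40.2, 32.6, 29.7 and 40.0 in CAL, and 17.5, 30.0, 35.1 and 27.1 in CAL_Dll4i. All CAL libraries lay above all controls. For CAL against control the log2 fold change was 0.85 ± 0.23, or 1.80-fold, with adjusted p = 0.179 by edgeR, 0.0131 by DESeq2 and 0.125 to 0.455 in edgeR's alternatives. Msr1, a scavenger receptor of macrophages, stood at -0.31 ± 0.10 in CAL against control (adjusted p = 0.214) and at 0.22 ± 0.10 in CAL_Dll4i against CAL. The adipocyte sums, 2160 to 3200 CPM in CAL against 933 to 2100 in control, were also higher where Pltp and Vldlr were, and their part was not tested.

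Srebf1, the sister gene of Srebf2 that drives fatty acid synthesis and is an LXR target, had 80.4, 69.5, 82.8 and 52.4 CPM in control, 92.9, 79.6, 81.1 and 110 in CAL, and 70.7, 77.2, 71.5 and 57.8 in CAL_Dll4i. CAL and CAL_Dll4i did not overlap, and both overlapped with control. The log2 fold change of CAL_Dll4i against CAL was -0.39 ± 0.15 (adjusted p = 0.659). Against control, CAL stood at 0.35 ± 0.15 (adjusted p = 0.317) and CAL_Dll4i at -0.04 ± 0.15. Adipocyte sums were likewise highest in CAL, and their part was not tested. In CAL_Dll4i against CAL, Cd36, a fatty acid and lipoprotein receptor, stood at 0.16 ± 0.07 and Ggps1 at 0.14 ± 0.07. In CAL_Dll4i against control Mbtps2 stood at -0.16 ± 0.06 without overlap, and Ch25h at -0.97 ± 0.50. Arl4c stood at -0.29 ± 0.15, Cd36 at 0.14 ± 0.07 and Lrp1, a large lipoprotein receptor, at 0.15 ± 0.07, all on the log2 scale.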

How the data were processed

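Gene expression was measured in 12 fat graft libraries, made from Trizol total RNA with a SureSelectXT RNA Direct kit, per the labels' protocols. Reads were processed with HISAT2 and StringTie on mm10 (versions not stated), per the submitters' processing notes. The deposited estimated counts are whole numbers of at least 1, and 1219 values equal 1. The deposited FPKM were not used, and the deposited TPM, which sum to 995156 to 998891 per library, served for levels between genes.

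Counts were tested in R 4.3.3 with edgeR 4.0.16 (TMM, filterByExpr, robust quasi-likelihood fit of all 12 libraries with 1 coefficient per group), which kept 18551 genes at a biological coefficient of variation of 0.237. The call was an adjusted p under 0.05 (Benjamini-Hochberg, two-sided, over all genes tested). CPM are TMM-normalised, log2 levels used a prior count of 2, and SEs come from the F statistic. Overlap between groups was judged on CPM unless TPM is named. DESeq2 1.42.0, RLE scaling, no filter, the compared groups alone, the replicate number as a block and each library left out were the alternatives; leaving out 3 libraries with muscle RNA was added after seeing the data. Figures were drawn with matplotlib 3.10.9 in Python 3.11.15.

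The members and lists were chosen with earlier results of these data known. Values per library are given for 12 set members and the 5 members with the smallest p per comparison, and of the other pathway lists up to 2 genes each are named per comparison. The result of 1 gene that this rule names is not reported here. Overlapping exons were taken from GENCODE M21 on GRCm38.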

Additional observations from a re-analysis of the deposited data

Results flagged for a closer look

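Of 159 groups of 4 libraries examined, 10 held a library far from its group (its gap to the next value, over the group's range, exceeded Dixon's 95% critical value), and chance flags about 1 in 20, or 7.95. Of the members, Scap stood at 67.4 CPM in control replicate 1 against 64.5 to 64.9 in the other controls, and Insig2 at 29.9 CPM in CAL_Dll4i replicate 1 against 34.2 to 34.6. Mbtps2 stood at 65.6 CPM in control replicate 1 against 72.3 to 72.9. Ch25h stood at 3.59 CPM in CAL replicate 3 against 0.775 to 1.17, and at 3.65 CPM in CAL_Dll4i replicate 1 against 1.3 to 1.55.

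Among summed markers, endothelial genes stood at 332 CPM in control replicate 3 against 281 to 288. CAL replicate 3 had a keratinocyte sum of 53.2 CPM against 3.59 to 5.89 and a macrophage sum of 5030 CPM against 4320 to 4430. CAL_Dll4i replicate 1 had a sebocyte sum of 25.2 CPM against 11.6 to 13.8. CAL_Dll4i replicate 3 had a skeletal muscle sum of 396 CPM against 6.4 to 11.6.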

How the results depend on the processing

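RLE scaling and no filter on low counts changed no call and no direction. DESeq2 called 3 members in CAL against control, where it called 616 of 17086 genes. At an unadjusted p under 0.05 it found 4 lower in CAL_Dll4i against CAL and 2 higher in CAL_Dll4i against control. Over all genes 1577 and 1441 reached that level in either direction, against 1377 and 1284 by edgeR. With only the compared groups fitted, CAL_Dll4i against control had 2 higher and 5 lower at that level, where 1376 of 18420 genes reached it in either direction. Sqle then stood at -0.00 in CAL_Dll4i against CAL, the other sign.

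Without the 3 libraries with muscle RNA, 0 members were lower at that level in CAL against control, 7 in CAL_Dll4i against CAL and 9 in CAL_Dll4i against control, with fewer libraries fitted. Over all 18690 genes tested there, 1782, 1962 and 1194 reached that level in either direction, against 2705, 1377 and 1284 with all libraries. The share of all genes that was lower was not counted in that setting. The estimates that changed sign were Stard4 at -0.08 in CAL against control, Sqle at -0.20, Srebf2 at -0.05 and Mylip at 0.07 in CAL_Dll4i against CAL, and Hmgcs1 at -0.04 and Srebf2 at -0.07 in CAL_Dll4i against control. All of these lay near 0 or had wide errors, and the cause was not tested.

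Same-numbered libraries correlated at -0.39 to 0.14 in their deviations from group means, and 1 of 12 correlated best with its own number. The samples were treated as unpaired, though with 4 libraries a group these correlations cannot exclude a pairing. With the replicate number as a block, 0 members were called in any comparison, and Sqle in CAL_Dll4i against CAL stood at -0.02, the other sign.

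Leaving out each library in turn, members lower at an unadjusted p under 0.05 ran from 0 to 6 in CAL against control. They were 0 without control replicate 2 (2067 of 18632 genes at that level in either direction) or CAL replicate 1 (1788 of 18626). They were 6 without control replicate 1 (3147 of 18635 genes). In CAL_Dll4i against CAL they ran from 2 to 5, with 5 without CAL_Dll4i replicate 3 (1951 of 18620 genes). In CAL_Dll4i against control they ran from 0 without CAL_Dll4i replicate 4 (1060 of 18617 genes) to 7 without CAL_Dll4i replicate 3 (989 of 18620). With all libraries 2705, 1377 and 1284 of 18551 genes reached that level in the same order of comparisons. Members higher ran from 1 to 2 in CAL_Dll4i against control, and the median of the LXR genes in CAL against control from 0.29 (without CAL replicate 4) to 0.39. Estimates that changed sign ran from -0.04 to 0.01 for Srebf2 and -0.07 to 0.06 for Stard4 in CAL against control. In CAL_Dll4i against CAL they ran from -0.17 to 0.01 for Cyp51, -0.07 to 0.02 for Mylip, -0.00 to 0.04 for Soat1, -0.12 to 0.11 for Sqle and -0.06 to 0.08 for Srebf2. In CAL_Dll4i against control they ran from -0.05 to 0.12 for Hmgcs1, -0.00 to 0.05 for Scarb1 and -0.07 to 0.07 for Srebf2. Each member had at least 190 counts in every library.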
